A study of Arabidopsis thaliana with 12 samples.

Results

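The nitrate response of roots of the Arabidopsis thaliana mutant afb3-1 was measured as the difference between 3 arrays of KNO3-treated roots and 3 arrays of KCl-treated roots, which are 6 of the 12 arrays in the series. All 22746 probe sets that are not array controls, of 22810 on the array, entered the comparison, so no gene was chosen for its values. Seedlings of afb3-1 had 0.5 mM ammonium succinate as their nitrogen supply and 3 mM sucrose, in hydroponic culture at 22 °C with 16 h of light and 8 h of dark. After 14 days, when the light came on at day 15, they were given 5 mM KNO3 or 5 mM KCl for 2 h, and their whole roots were taken. The KCl groups control for potassium and for handling, and every group had ammonium. They differ from the KNO3 groups in chloride as well as in nitrate, and effects of these 2 cannot be told apart. The other 6 arrays held Ws roots under the same treatments, 3 per treatment, and serve as the comparison genotype. afb3-1 carries a mutant allele of AFB3 in every cell of the plant. The labels describe 3 independent biological replicates per group and do not say how many seedlings were pooled for each. Whole roots mix many cell types, and fewer cells of a type and less RNA per cell cannot be told apart.

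Nitrate is a nutrient and also a signal in roots. It is taken up by transporters of the NRT2 and NPF families, reduced to nitrite and then ammonium, and combined with carbon skeletons from organic acids. In roots, electrons for the step from nitrite to ammonium come from NADPH of the oxidative pentose phosphate pathway. The signal acts through transcription factors, among whose early targets are the HHO repressors, which in turn restrain nitrate uptake genes. AFB3 is an F-box protein of the auxin receptor family that is known as a link between nitrate and root branching.

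Values are log2 signals as the authors deposited them, so a difference of 1 is a doubling. Array medians lay between 3.8 and 3.92 in afb3-1. Arrays of one afb3-1 group correlated with Pearson r of 0.982 to 0.996 over probe sets, against 0.973 to 0.986 between KCl and KNO3 arrays. A single gene was named for 13513 probe sets. AFB3 had no named probe set and was not analysed here, so the genotype could not be checked from its own transcript. The tissue label was checked against 2 measured root hair genes. EXPA18 and EXPA7, expansins of root hair cells, had mean levels of 5.48 and 5.21 over the 6 arrays, and the other 19 root markers were not measured under a name. Both measured photosynthesis genes were present too. RCA, which activates Rubisco, was at 6.08, 6.03 and 7.32 in KCl replicates 1, 2 and 3 and at 6.78, 6.62 and 6.81 in KNO3. LHCB4.1, a chlorophyll-binding antenna protein, was at 5.27, 5.07 and 7.07 in KCl and 6.33, 5.79 and 5.89 in KNO3. KCl replicate 3 was thus the highest of the 6 arrays for both genes, and values without that array are given for both genes and for 8 others. All other green tissue markers on the list, 7 of 9, were not measured under a name.

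At an adjusted p under 0.05, 628 of 22746 probe sets changed (limma, 2.76%), 408 of them higher (1.79%) and 220 lower (0.967%) with nitrate. At an unadjusted p under 0.05 the number was 2528. With array weights the split was 797 rises and 815 falls, so the excess of rises depended on that setting. The median rise was 2.43-fold and the median fall 1.81-fold. Rises of at least 2-fold numbered 278, of at least 4-fold 104, of at least 8-fold 36 and of at least 16-fold 7. Falls of at least 2-fold numbered 70, of at least 4-fold 8, and none reached 8-fold. Over all probe sets the median log2 change was 0.00 when rounded. The 3 KNO3 arrays lay wholly above or wholly below the 3 KCl arrays for 3873 probe sets (17.0%), 1863 above (8.19%) and 2010 below (8.84%). All 408 rises and all 220 falls were among these, which their choice by the same values makes likely.

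Rises and falls began from different levels. When all probe sets were cut into tertiles by level in KCl, at 2.31 and 5.12, 35 rises started in the lower tertile, 187 in the middle and 186 in the upper one. For falls the counts were 2, 82 and 136. Fold changes of dim probe sets are understated on such arrays, and a dim transcript has little room to fall. Whether either shaped these counts was not tested. Median log2 changes of the rises were 1.4, 1.48 and 1.14 from the lower to the upper tertile. For the falls they were −0.56, −0.93 and −0.83.

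**Figure D1:**
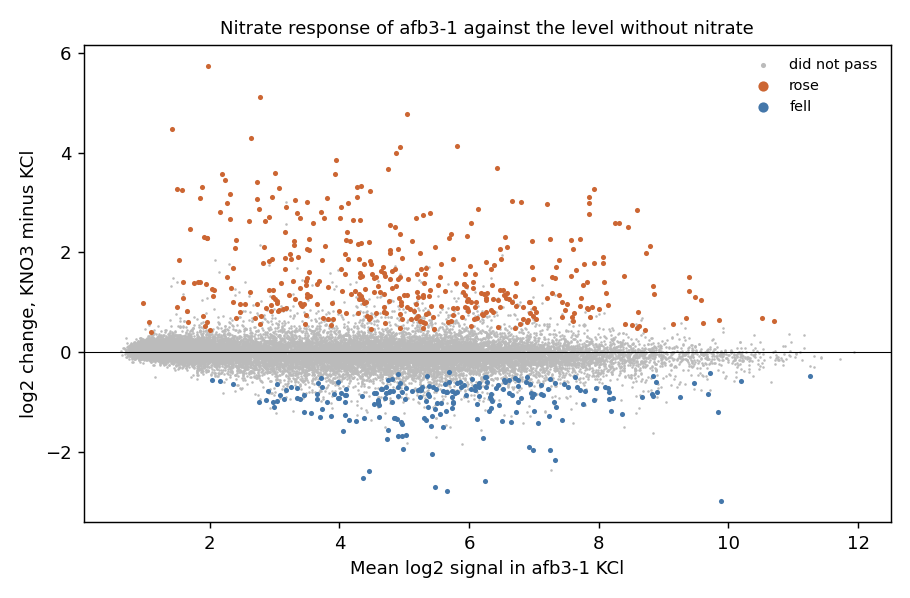
Change with nitrate in afb3-1 (log2, KNO3 minus KCl, vertical axis) against the mean log2 signal of the 3 KCl arrays (horizontal axis), one point per probe set. The 408 rises (orange) reach 5.73 and the 220 falls (blue) reach −2.97, and grey points did not pass.

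The counts depended on single arrays more for falls than for rises. With KCl replicate 1 left out the count was 387 in place of 628, of which 100 were falls in place of 220. Omitting KCl replicate 2 gave 396 calls with 113 falls, omitting KNO3 replicate 1 gave 452 with 138 falls, and omitting KNO3 replicate 3 gave 380 with 102 falls. KCl replicate 3 and KNO3 replicate 2 mattered less, with 480 and 571 calls when omitted. Rises numbered between 278 and 384 over the 6 omissions. Through all 6 omissions 334 probe sets were called each time, 257 that rose and 77 that fell. Omission leaves 2 arrays in that group, so fewer calls are part of the construction.

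The nitrate arrays were not equal in how far they moved. KNO3 replicate 3 was the highest of the 3 in 271 of the 408 rises, KNO3 replicate 1 in 87 and KNO3 replicate 2 in 50. Median rises against the KCl mean were 1.48, 1.26 and 1.12 in that order. Falls showed no such order, with replicates 1, 2 and 3 the lowest in 74, 70 and 76 of 220.

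The nitrate signalling regulators that rose were 3 HHO factors, GARP-type transcriptional repressors in nitrate and phosphate signalling. HHO1 (AT3G25790) stood at 1.34, 1.27 and 1.64 in the 3 KCl arrays and at 5.48, 5.71 and 6.47 in the 3 KNO3 arrays. It went from the bottom of the scale to a level above the array median on every nitrate array. The rise was 4.47 ± 0.32 on the log2 scale (SE, n = 3 per group), or 22.1-fold (adjusted p = 1.43e-05).

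HHO3 (AT1G25550) was at 4.63, 4.69 and 3.5 in KCl and at 7.44, 7.28 and 7.45 in KNO3. HHO2 (AT1G68670) was at 3.63, 3.6 and 1.65 in KCl and at 5.93, 6.22 and 6.07 in KNO3. In both genes the nitrate arrays lay close together while KCl replicate 3 lay below its fellows, the same array that had the highest RCA and LHCB4.1. The rises were 3.12 ± 0.27 for HHO3 and 3.11 ± 0.42 for HHO2 (SE, adjusted p = 6.37e-05 and 0.00159), and both stayed past the threshold in every single-array omission. Without KCl replicate 3 the rises were 2.73 for HHO3 and 2.46 for HHO2, so that HHO2 went from 8.66-fold to 5.51-fold with a smaller error (SE 0.19, adjusted p = 9.06e-05).

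HHO5 (AT4G37180), another member of the group, had 3.91, 3.8 and 2.83 in KCl and 4.84, 4.67 and 4.19 in KNO3. Its groups did not overlap, KCl replicate 3 was again the lowest array, and the difference of 1.05 ± 0.33 (SE) did not pass (adjusted p = 0.163, or 0.355 without that array). HHO6 (AT1G49560) was at −0.10 ± 0.23 (SE) with overlapping groups. NRG2 (AT3G60320), a positive regulator of nitrate signalling, was at 0.06 ± 0.15. Thus 3 of 6 measured nitrate signalling regulators rose and none fell, with a median log2 change of 2.08, beside 1.44% of all probe sets with 1 gene that rose. The list was chosen with earlier results of these data known, which can favour called members. The remaining 27 of the 33 genes on that list were not measured under a name.

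PGD3 (AT5G41670), a 6-phosphogluconate dehydrogenase, which yields NADPH in the oxidative pentose phosphate pathway, was at 7.76, 7.86 and 7.93 in KCl and at 10.82, 10.66 and 11.03 in KNO3. Its rise of 2.99 ± 0.12 (SE) was 7.92-fold (adjusted p = 1.85e-07). PGD1 (AT1G64190), of the same enzyme, was at 8.78, 8.73 and 8.67 in KCl and at 10.69, 10.66 and 10.82 in KNO3, a rise of 1.99 ± 0.10 (SE, adjusted p = 1.13e-06). The spread within a group was under 0.4 for both genes, far below the change.

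The remaining gene of that enzyme was lower with nitrate in its values without passing. PGD2 (AT3G02360) had 9.71, 9.54 and 9.56 in KCl against 9.24, 9.35 and 9.45 in KNO3, a difference of −0.26 ± 0.11 (SE, adjusted p = 0.367). All KNO3 arrays were below all KCl arrays, as for 8.84% of all probe sets.

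PGM (AT1G78050), a phosphoglycerate/bisphosphoglycerate mutase of the glycolytic route, rose from 4.89, 4.98 and 4.75 to 8.68, 8.47 and 9.48. Nitrate replicate 3 was the highest. The rise of 4.0 ± 0.27 (SE) was 16.0-fold (adjusted p = 1.05e-05). cICDH (AT1G65930), the cytosolic NADP-isocitrate dehydrogenase that makes 2-oxoglutarate, was bright in both groups, at 10.52, 10.53 and 10.51 in KCl and 10.48, 10.25 and 10.17 in KNO3, and did not pass (−0.22 ± 0.16 SE). So 3 of 5 measured genes on the list for reductant and carbon skeletons rose and none fell, with a median log2 change of 1.99, again beside 1.44% of all probe sets with 1 gene. This list, too, was chosen with earlier results of these data known.

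Further enzymes of carbon metabolism were picked from the called genes after their values were seen. The plastidic NAD-dependent malate dehydrogenase MDH (AT3G47520), which interconverts malate and oxaloacetate, was at 7.39, 7.52 and 7.09 in KCl and 8.82, 8.75 and 9.56 in KNO3, a rise of 1.71 ± 0.22 (SE, adjusted p = 0.00117). Of 2 genes named as malate dehydrogenases, 1 rose, beside 1.44% of all probe sets with 1 gene. AT5G58330 was at 0.04 ± 0.32 (SE, adjusted p = 0.991). MAB1 (AT5G50850), a subunit of mitochondrial pyruvate dehydrogenase, rose by 0.81 ± 0.09 from KCl values of 8.57 to 8.66 (adjusted p = 0.000583). Those KCl arrays lay within 0.1 of each other, and the lowest KNO3 array was at 9.32.

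Among 6 isocitrate dehydrogenase genes with a named probe set, the catalytic subunits of the mitochondrial NAD enzyme IDH-VI (AT3G09810) and IDH-V (AT5G03290) rose (1.44% over all probe sets with 1 gene) and the other 4 did not pass. IDH-VI went from 6.88, 6.95 and 7.16 to 8.02, 7.65 and 7.99, a rise of 0.89 ± 0.15 (SE, adjusted p = 0.00834). IDH-V went from 8.49, 8.46 and 8.60 to 9.22, 8.98 and 9.02, a rise of 0.55 ± 0.11 (SE, adjusted p = 0.0151). That second call was lost without KCl replicate 1 (adjusted p = 0.0666), KCl replicate 2 (0.076) or KNO3 replicate 1 (0.0654). IDH-III and IDH-IV were dim in all 6 arrays, below 2.2, and ICDH was at 0.00 when rounded (SE 0.15).

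**Figure D2:**
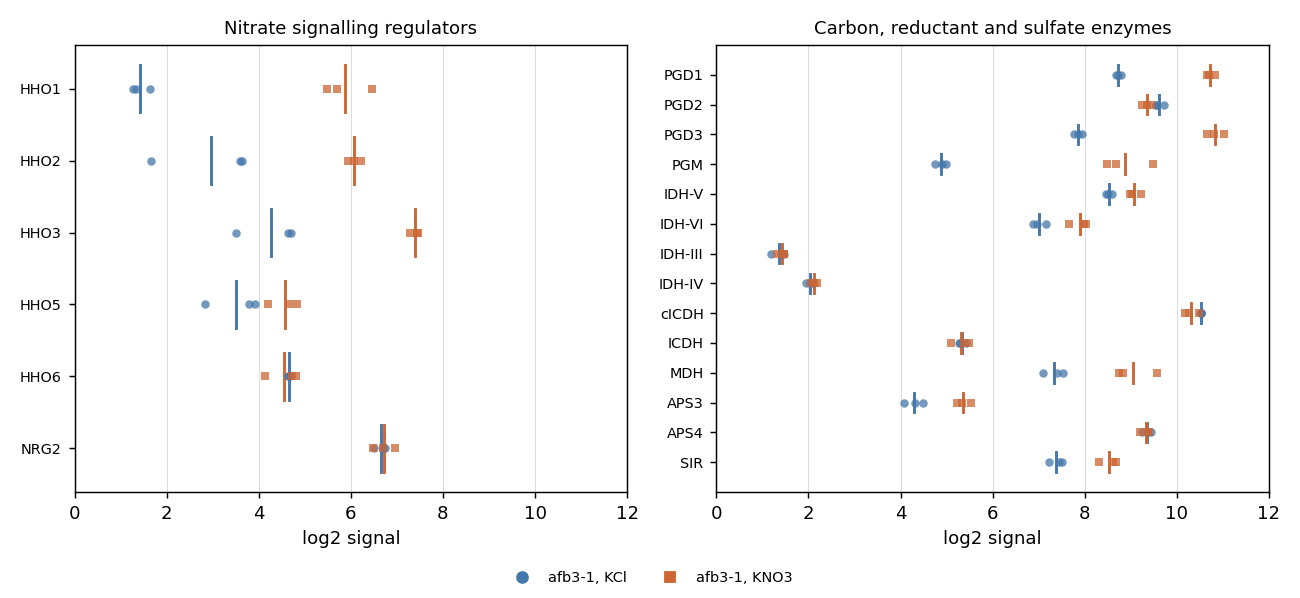
Log2 signal of each afb3-1 array (points) and group mean (bars) for 6 nitrate signalling regulators and 14 enzymes, KCl in blue and KNO3 in orange. HHO1, PGD3 and PGM show wide gaps between groups, while PGD2, cICDH, APS4 and HHO6 do not, and KCl replicate 3 is the low blue point of HHO2 and HHO3.

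Of 3 measured ATP sulfurylase and sulfite reductase genes, picked after their values were seen, 2 rose (1.44% of all probe sets with 1 gene rose). APS3 (AT4G14680), an ATP sulfurylase, which activates sulfate, was at 4.49, 4.31 and 4.08 in KCl and 5.22, 5.34 and 5.53 in KNO3, a rise of 1.07 ± 0.12 (SE, adjusted p = 0.000571). SIR (AT5G04590), the sulfite reductase that forms sulfide, was at 7.50, 7.43 and 7.22 in KCl and 8.31, 8.60 and 8.68 in KNO3, a rise of 1.15 ± 0.15 (SE, adjusted p = 0.00152). APS4, the brighter ATP sulfurylase, stayed at 9.2 to 9.4 in every array and did not pass (−0.03 ± 0.15 SE).

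SUFE2 (AT1G67810), which activates cysteine desulfurase for iron-sulfur cluster assembly, fell. It was at 5.28, 5.02 and 6.12 in KCl and at 2.79, 2.76 and 2.75 in KNO3. The 3 nitrate arrays agreed closely, and KCl replicate 3 was the highest. The fall was −2.71 ± 0.39 on the log2 scale (SE), or 6.53-fold (adjusted p = 0.00238), and −2.38 without that array (adjusted p = 0.0111). BGLU28, a beta-glucosidase induced by sulfur shortage, was dim (1.01 to 1.45) and did not pass, so 1 of 2 measured genes of the sulfate list fell (0.799% over all probe sets with 1 gene). SIRB, which inserts iron into sirohaem, the cofactor of nitrite and sulfite reductases, was the only measured gene of 20 on the list of nitrate reduction and nitrogen assimilation, and was at 0.07 ± 0.15 (SE).

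The largest rise of all named genes was that of AT5G10210, whose product the gene table does not name. It stood at 2.04, 1.75 and 2.14 in KCl and at 7.65, 7.23 and 8.24 in KNO3, a rise of 5.73 ± 0.26 (SE), or 53.1-fold (adjusted p = 4.09e-07). AT2G48080, likewise without a product name, was at 2.64, 3.01 and 2.66 in KCl and 7.79, 7.82 and 8.06 in KNO3, a 34.8-fold rise (adjusted p = 3.97e-07). Both transcripts went from dim to well above the array median on each nitrate array.

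WNK7 (AT1G49160), one of the WNK kinases, in which the catalytic lysine is displaced, was at 2.47, 2.43 and 1.69 in KCl and 5.28, 5.90 and 6.15 in KNO3, a 12-fold rise (adjusted p = 3.79e-05, and 3.33 on the log2 scale without KCl replicate 3). Apart from these and from HHO1 and PGM, the 14 largest named rises were AT3G07350 (19.5-fold), AT4G18340 (14.5-fold), AT5G19970 (12-fold), AT2G28780 (10.9-fold), AT5G54170 (10.1-fold), AT3G47980 (9.90-fold), AT5G59080 (9.69-fold), AT3G62930 (9.57-fold) and AT1G80380 (9.37-fold). None of these 9 has a product name in the gene table.

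All 14 largest rises passed with adjusted p between 1.85e-07 and 0.00602 and kept the call in each single-array omission. Their lowest KNO3 array lay at least 1.67 above their highest KCl array. Most variable was AT2G28780, at 2.03, 3.00 and 1.70 in KCl and 4.67, 6.72 and 5.67 in KNO3. AT3G47980 had a second probe set, which also rose (10.6-fold, adjusted p = 0.000613). In 10 of the 14, KNO3 replicate 3 was the highest array. Their median KCl level was 2.71, below the array median, and picking rises favours low KCl values. Of the 104 probe sets that rose at least 4-fold, 58 had a single named gene.

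**Figure D3:**
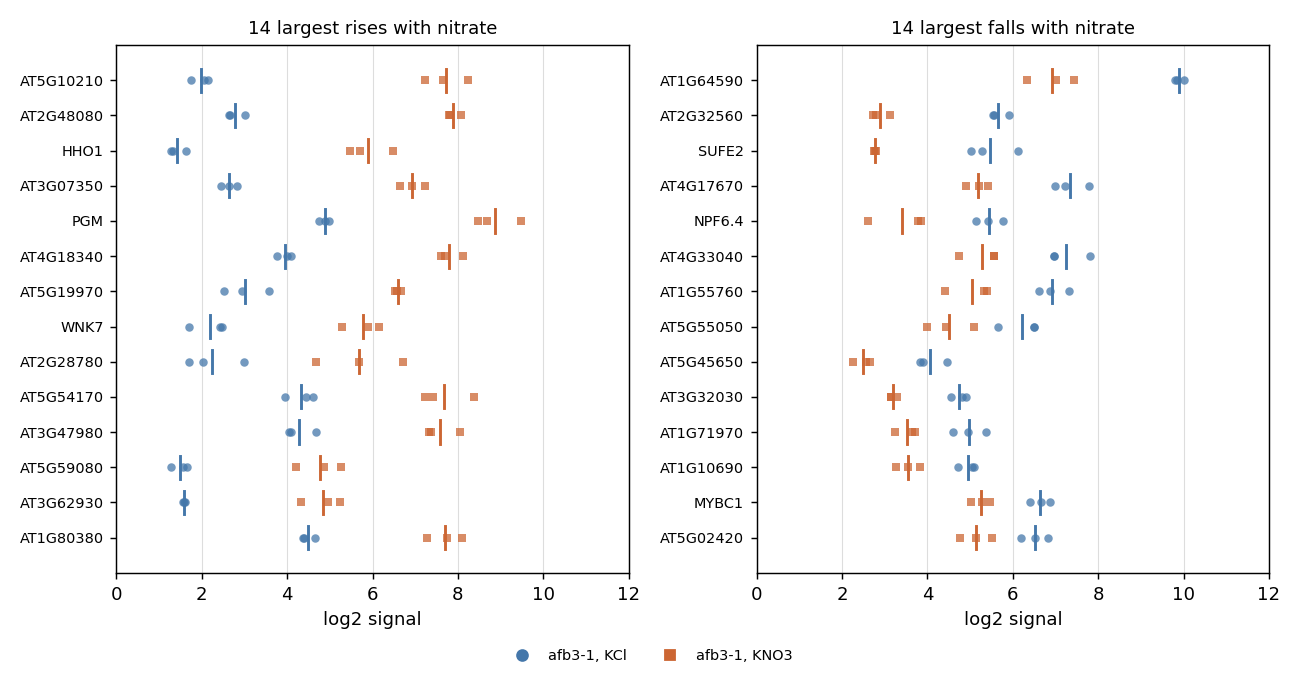
Log2 signal of each afb3-1 array (points) and group mean (bars) for the 14 largest named rises and falls, KCl in blue and KNO3 in orange. The groups are apart in all 28 genes, by at least 1.67 in the rises and at least 0.57 in the falls.

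The falls were smaller and had brighter KCl values, with a median KCl level of 5.94 in the 14 largest. The same KCl arrays enter the change, and picking falls favours high values. AT1G64590, without a product name, was at 9.85, 9.80 and 10.02 in KCl and at 7.42, 7.0 and 6.34 in KNO3. KCl arrays agreed within 0.3, while nitrate arrays spread over more than 1. The fall was −2.97 ± 0.26 (SE), or 7.83-fold (adjusted p = 7.73e-05). AT2G32560 fell from 5.52, 5.55 and 5.91 to 2.73, 3.13 and 2.80, by 6.84-fold (adjusted p = 1.05e-05). Its second probe set was near the floor and did not pass (−0.49 ± 0.14 SE, adjusted p = 0.104).

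AT4G17670 fell 4.45-fold (−1.93 on the log2 scale without KCl replicate 3, adjusted p = 0.0376), AT4G33040 3.9-fold, AT1G55760 3.70-fold, AT5G45650 2.97-fold, AT3G32030 2.94-fold and AT1G10690 2.65-fold, all without a product name in the gene table. Their calls held in each single-array omission. In AT4G33040 the KCl values were 6.97, 6.95 and 7.81, so KCl replicate 3 was the highest there as in SUFE2, and without it the fall was −1.68 (adjusted p = 0.049). The probe set of AT3G32030 is of a kind that can match more than 1 transcript.

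MYBC1 (AT2G40970), a GARP-type MYB-like transcription factor known from cold tolerance, fell from 6.67, 6.4 and 6.87 to 5.29, 5.48 and 5.01. The groups lay well apart. The fall was −1.39 ± 0.18 (SE), or 2.62-fold (adjusted p = 0.00114).

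For 4 of the 14 largest falls the call rested on single arrays. NPF6.4 is described with the transporters. AT5G55050 (−1.71, adjusted p = 0.0234) lost the call without KCl replicate 1 (adjusted p = 0.115), KCl replicate 2 (0.107), KNO3 replicate 1 (0.0883) or KNO3 replicate 3 (0.115). AT1G71970 (−1.44, adjusted p = 0.0112) lost it without KNO3 replicate 1 (0.0575). AT5G02420 (−1.38, adjusted p = 0.0384) lost it without KCl replicate 1, 2 or 3 or KNO3 replicate 2 or 3, with adjusted p between 0.0628 and 0.134.

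Of 4 measured transporter genes for nitrate and ammonium, 1 fell, beside 0.799% of all probe sets with 1 gene. NPF6.4 (AT3G21670), a member of the NPF family of low-affinity transporters, was at 5.14, 5.41 and 5.77 in KCl and 3.85, 2.6 and 3.77 in KNO3. Every nitrate array was below every control array, and KNO3 replicate 2 was far below the other 2. The fall of −2.03 ± 0.43 (SE, adjusted p = 0.0272) lost its call without KCl replicate 1, 2 or 3 or KNO3 replicate 2 or 3, with adjusted p between 0.0602 and 0.101. NRT2.5 (AT1G12940), a high-affinity nitrate transporter of nitrogen-starved plants, was at 4.95, 3.49 and 7.25 in KCl and 6.89, 2.65 and 6.24 in KNO3. Its arrays spread over more than 4 units with the groups mixed, and its difference had a wide error (0.03 ± 1.41 SE). NPF3.1 and NPF6.2 were at −0.10 ± 0.37 and −0.20 ± 0.27 (SE).

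Auxin-inducible genes (8 measured) and genes of lateral root initiation (4 measured) had no member past the threshold. WES1 (AT4G27260), an auxin-conjugating enzyme also called GH3.5, was at 6.25, 5.97 and 6.34 in KCl and 5.73, 5.80 and 5.31 in KNO3 (−0.57 ± 0.20 SE, adjusted p = 0.237). IAA29, an Aux/IAA repressor, was dim, at 1.62 to 1.73 in KCl and 1.80 to 2.37 in KNO3 (0.39 ± 0.15 SE, adjusted p = 0.336). In both genes the groups did not overlap, as in 17.0% of probe sets. LBD29, a factor of lateral root initiation, was at −0.33 ± 0.20, LBD16 at 0.04 ± 0.27, PUCHI at 0.10 ± 0.17 and CR4, a receptor kinase also known as ACR4, at −0.36 ± 0.25 (SE).

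In the cytokinin list ARR15 (0.18 ± 0.22 SE) and RR16 (0.08 ± 0.14 SE), response regulators, were dim and did not pass. The same held for BHLH101 of iron deficiency (−0.01 ± 0.13 SE). STZ, a zinc finger factor of wounding and salt stress, was at 0.44 ± 0.23, and the clock gene GI at −0.07 ± 0.16 (SE). EXPA18 and EXPA7 were at −0.39 ± 0.42 and −0.19 ± 0.39, RCA at 0.26 ± 0.35 and LHCB4.1 at 0.20 ± 0.47 (SE), none past the threshold. Without KCl replicate 3 the values were 0.68 ± 0.29 for RCA and 0.83 ± 0.32 for LHCB4.1 (SE, adjusted p = 0.347 and 0.289). Over 13 lists with a measured member, 6 of 37 measured genes rose and 2 fell, beside 1.44% and 0.799% of all probe sets with 1 gene. The lists were chosen with earlier results of these data known, which can favour called members, so these shares are no test of the lists.

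Most gene families defined by name held no or a single called member. In 14 families with 211 measured members, 3 rose and 3 fell, near the 2.23% called among all probe sets with 1 gene. XTH20 (AT5G48070), a xyloglucan endotransglucosylase of the cell wall, was at 6.84, 6.93 and 6.72 in KCl and 7.58, 7.74 and 7.91 in KNO3, a rise of 0.91 ± 0.15 (SE, adjusted p = 0.00628). EXLB1 (AT4G17030), an expansin-like protein, was at 8.06, 7.70 and 8.00 in KCl and 7.06, 6.94 and 6.89 in KNO3, a fall of −0.96 ± 0.15 (SE, adjusted p = 0.00348). These 2 wall genes had compact, well separated groups. UGT80B1 (AT1G43620), a sterol glucosyltransferase, fell by 0.73 on the log2 scale (adjusted p = 0.00876) and was the only one of 51 UDP-glycosyltransferases to pass.

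CYP78A9 (AT3G61880), a cytochrome P450 known from fruit and seed size, was at 2.79, 2.67 and 3.28 in KCl and 6.38, 4.27 and 6.23 in KNO3. KNO3 replicate 2 was far below the other 2 nitrate arrays. Its rise of 2.71 ± 0.58 (SE, adjusted p = 0.0295) lost the call without KCl replicate 1, 2 or 3 or KNO3 replicate 1 or 3 (adjusted p between 0.062 and 0.142), and was 10.5-fold rather than 6.55-fold without KNO3 replicate 2. bZIP58 (AT1G13600), a leucine-zipper transcription factor, rose by 1.16 ± 0.23 (SE, adjusted p = 0.0176), a call lost without KCl replicate 1, 2 or 3 or KNO3 replicate 2 or 3 (adjusted p between 0.0556 and 0.0893).

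Families were matched by symbol or synonym only, and genes of these families under other names were not counted, called or not. A family without a called member here can thus still hold called genes under other names, and its lack of response is not shown. By that match, no member was called among glutaredoxins (5), glutathione transferases (14), WRKY (7) and bHLH (7) factors or Aux/IAA and GH3 genes (12). The same held for response regulators (6), peroxidases (8) and SWEET and UmamiT transporters (16). Their largest single values were not small. ROXY2, a CC-type glutaredoxin, was at 1.61, 1.5 and 1.65 in KCl and 3.38, 2.34 and 2.52 in KNO3 (1.16 ± 0.34 SE, adjusted p = 0.132). XTH16 (−1.45, adjusted p = 0.0699) and EXPA8 (−1.05, adjusted p = 0.15) of the wall families, SWEET13, a sucrose transporter (1.09, adjusted p = 0.28), and GSTU21 (1.04, adjusted p = 0.425) also had fold values above 2 without passing.

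**Figure D4:**
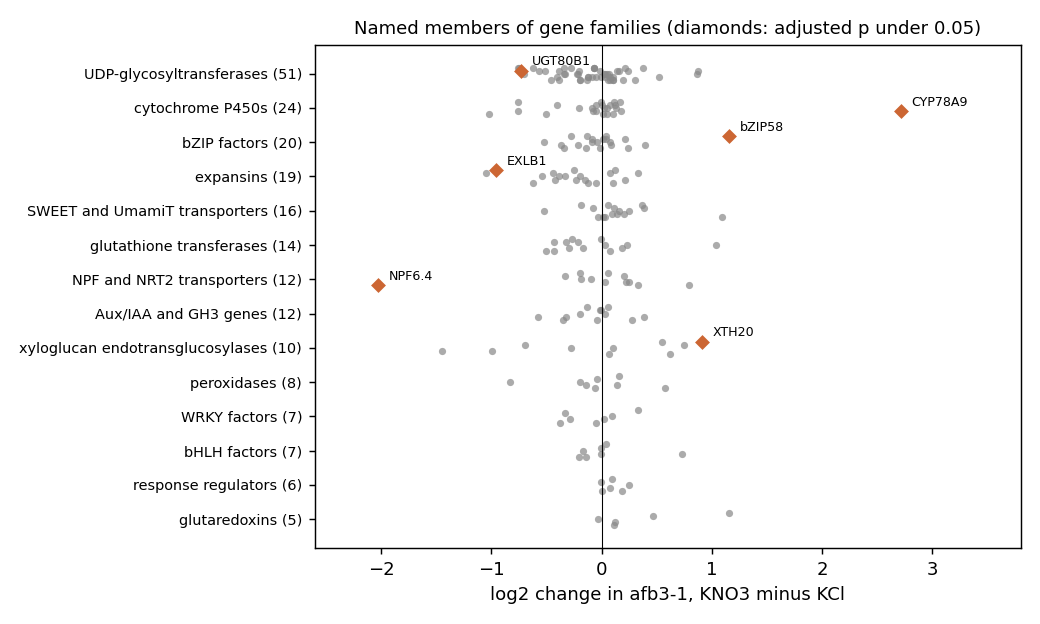
Log2 change in afb3-1 (KNO3 minus KCl) of each named member of 14 gene families, with the number of members in brackets. Grey points did not pass, and the 6 diamonds mark CYP78A9, bZIP58 and XTH20, which rose, and UGT80B1, EXLB1 and NPF6.4, which fell.

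By the naming rule used here, 52 called genes had a name other than the current locus, 31 that rose and 21 that fell. Of these, 32 kept their call without each array in turn. The names were symbols of the gene table, names from the gene lists or synonyms of the NPF, DTX, UGT or CYP kind. Other synonyms, such as F6'H1 of AT3G13610, were not used, so more called genes have a name. AT1G32920 was counted under an older name. The genes that follow were chosen from the 52 after their values were seen. Among the rises, DTX50 (AT5G52050), an efflux carrier that exports abscisic acid, was at 1.83, 2.16 and 2.97 in KCl and 5.40, 4.82 and 6.23 in KNO3 (3.16 ± 0.36 SE, and 3.49 without KCl replicate 3). HYH (AT3G17609), a bZIP factor and homologue of HY5 in light signalling, was at 4.34, 4.16 and 4.51 in KCl and 6.53, 6.10 and 6.94 in KNO3 (2.19 ± 0.29 SE). It was not matched by name to the bZIP family and is not counted there. The MADS-box factor AGL79 (AT3G30260) rose by 1.43 ± 0.14 (SE), although its dimmer probe set did not pass (0.56, adjusted p = 0.445). Adjusted p was between 0.000219 and 0.00125 for these 3.

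Metabolic enzymes were also among the rises with such a name. BAT1 (AT4G31910), an acyltransferase of brassinosteroids, was at 7.43, 7.17 and 7.16 in KCl and 9.38, 9.15 and 10.01 in KNO3 (2.26 ± 0.22 SE, adjusted p = 0.000178). PMEAMT (AT1G48600), a phosphoethanolamine N-methyltransferase of phosphocholine synthesis, was at 8.32, 8.11 and 7.76 in KCl and 9.60, 9.89 and 10.06 in KNO3 (1.79 ± 0.22 SE, adjusted p = 0.000832). Both were bright already without nitrate. NTRC (AT2G41680), a plastid NADPH-dependent thioredoxin reductase, rose by 1.12 ± 0.20 (SE, adjusted p = 0.0108), and the call was lost without KCl replicate 1 (adjusted p = 0.0579), KCl replicate 2 (0.053) or KNO3 replicate 3 (0.0627).

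Among the falls with such a name were 2 genes of purine use. AZG1 (AT3G10960), a purine and cytokinin transporter, was at 5.37, 5.40 and 5.32 in KCl and 4.41, 4.46 and 4.70 in KNO3 (−0.84 ± 0.11 SE, adjusted p = 0.00157). ALN (AT4G04955), the allantoinase that opens the way to nitrogen release from purines, was at 6.67, 6.84 and 6.74 in KCl and 6.09, 5.42 and 5.74 in KNO3 (−1.0 ± 0.19 SE, adjusted p = 0.015). Its call was lost without KCl replicate 2 (adjusted p = 0.0702), KNO3 replicate 2 (0.0514) or KNO3 replicate 3 (0.0658).

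HCT (AT5G48930), a hydroxycinnamoyl transferase on the route to lignin, was at 8.81, 8.84 and 8.84 in KCl and 7.91, 7.86 and 8.12 in KNO3 (−0.87 ± 0.11 SE, adjusted p = 0.001). The KCl arrays differed by 0.03 at most in HCT. TBL38 (AT1G29050) and TBL21 (AT5G15890), of the trichome birefringence-like family of wall acetylation proteins, fell by 0.92 and 0.69 on the log2 scale (adjusted p = 0.00521 and 0.00372), 2 of 22 measured members of a family picked after its values were seen (0.799% of all probe sets with 1 gene fell). HAT2 (AT5G47370), a homeodomain-leucine zipper factor known to be induced by auxin, was at 7.18, 6.77 and 7.02 in KCl and 6.27, 6.12 and 6.10 in KNO3 (−0.83 ± 0.13 SE, adjusted p = 0.0038).

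Of the 5 called genes with the highest signal, 3 changed by less than 2-fold. AT3G58610 was at 9.41, 9.47 and 9.29 in KCl and 10.51, 10.54 and 10.78 in KNO3, a rise of 1.22 ± 0.13 (SE, adjusted p = 0.000283). PGD1, described with the reductant enzymes, was among the 5 as well. AT2G31390 rose 1.5-fold (adjusted p = 0.0102, and 0.0599 without KNO3 replicate 3). AT3G02910 rose 1.6-fold (adjusted p = 0.0247), a call lost without KCl replicate 1, 2 or 3 or KNO3 replicate 1 or 3 (adjusted p between 0.0648 and 0.119). AT3G13610, listed with the synonym F6'H1, an enzyme of coumarin synthesis, fell 1.49-fold (adjusted p = 0.0348), and each of the 6 omissions lost that call (adjusted p between 0.0557 and 0.158).

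The comparison with Ws asks whether the mutant responded to nitrate differently. No probe set passed a test of the difference of the 2 responses (limma, 0 of 22746, 0.0%; 664 at an unadjusted p under 0.05, or 2.92%). With same-numbered arrays of the genotypes as pairs the count was again 0, with 2073 (9.11%) at an unadjusted p under 0.05. In Ws 658 probe sets changed with nitrate (2.89%), and 454 of the 628 afb3-1 calls were called there as well. A miss does not show that the responses are alike, and the intervals give what the data allow. For 152 of the 628, the 95% interval of the difference lay within 1.5-fold either way, for 476 within 2-fold and for 625 within 4-fold. The median half-width was 0.55 on the log2 scale, or 0.38 with pairs. For 33 of the 628 (5.25%) the interval left out 0, and for 83 with pairs, which their choice by the afb3-1 response can favour.

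For PGD1 the response was 1.99 in afb3-1 and 1.97 in Ws, and for AT3G58610 1.22 and 1.16, with a difference of 0.06 (95% interval −0.34 to 0.46). PGM rose by 4.0 and 4.16 (difference −0.16, interval −1.01 to 0.69). HHO3 rose by 3.12 and 3.25 (−0.13, interval −0.96 to 0.69) and HHO2 by 3.11 and 3.05 (0.06, interval −1.26 to 1.38). The wide HHO2 interval sits beside the low KCl replicate 3.

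Over the 14 largest rises the difference ran from −0.23 to 0.70, all 14 were also called in Ws, and the interval left out 0 only for AT3G07350, which rose by 4.29 in afb3-1 and 3.73 in Ws (0.56, interval 0.06 to 1.06, unadjusted p = 0.0327). With pairs it also left out 0 for AT3G62930 (0.70, interval 0.23 to 1.17, adjusted p = 0.484). Over the 14 largest falls it ran from −0.54 to 0.37 with every interval across 0 in the fit without pairs, and 13 were called in Ws. With pairs the interval for AT1G64590 left out 0 (−0.54, interval −0.89 to −0.19, adjusted p = 0.484). The gene not called in Ws was NPF6.4, at −2.03 in afb3-1 and −1.78 in Ws (adjusted p = 0.0528 there, difference −0.25, interval −1.59 to 1.08).

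The 5 called genes with the smallest p for the difference are given as values, since none passed (adjusted p = 0.999). AT5G19730 was at 2.72, 2.75 and 2.62 in KCl and 3.37, 3.47 and 3.33 in KNO3 in afb3-1, a rise of 0.69, against 0.10 in Ws (difference 0.59, interval 0.30 to 0.89, unadjusted p = 0.000909). AT4G16270 was at 0.57 in afb3-1 and −0.05 in Ws (0.62, interval 0.31 to 0.93). AT3G51090 was at −0.57 and 0.02, and AT3G59430 at 0.45 and −0.04, in that order of genotypes. These 4 genes had mean levels of 4.05 or lower in both afb3-1 groups. By level in KCl, AT3G51090 and AT3G59430 lay in the lower tertile of all probe sets and AT5G19730 and AT4G16270 in the middle one.

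AT3G01260 was brighter and had the smaller rise in the mutant. It was at 6.18, 6.3 and 5.82 in KCl and 6.86, 7.16 and 7.33 in KNO3, a rise of 1.01 ± 0.17 (SE, adjusted p = 0.00655) against 1.79 in Ws. The difference was −0.78 (interval −1.31 to −0.25, unadjusted p = 0.00751). The calls of AT3G51090 and AT3G59430 in afb3-1 were lost in single-array omissions. For AT3G51090 these were KCl replicate 1, 2 or 3 and KNO3 replicate 1 or 3 (adjusted p between 0.0793 and 0.104). For AT3G59430 they were all 6 (adjusted p between 0.065 and 0.153).

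**Figure D5:**
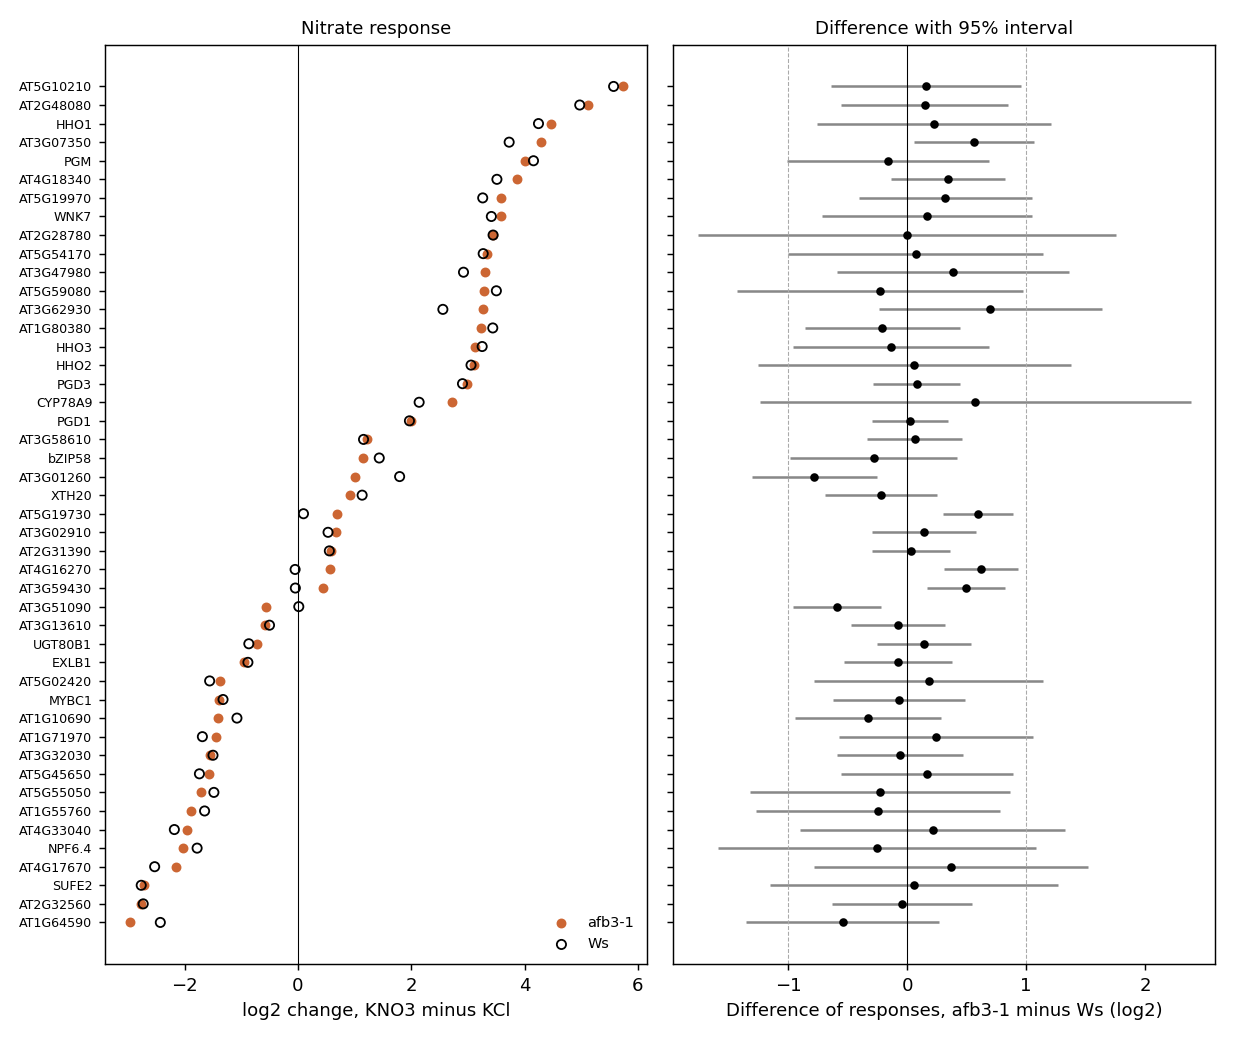
Left, log2 change with nitrate in afb3-1 (filled) and Ws (open) for the called genes named by rule. Right, the difference of these changes (afb3-1 minus Ws, point) with its 95% interval (line), dashed lines marking 2-fold; most intervals, from the fit without pairs, cross 0, and AT3G07350, AT5G19730, AT4G16270, AT3G59430, AT3G51090 and AT3G01260 do not.

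By chromosome, the called probe sets with 1 gene numbered 71 of 3451 on chromosome 1, 32 of 2200 on chromosome 2, 67 of 2746 on chromosome 3, 41 of 1962 on chromosome 4 and 90 of 3008 on chromosome 5. Over all probe sets with 1 gene, 302 of 13513 were called (2.23%). Of 69 probe sets for plastid genes, 0 passed (limma), and at that share so few probe sets could hold none.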

How the data were processed

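Biotin-labelled RNA of whole roots was hybridized to 12 Affymetrix arrays, per the labels. The deposited values are log2 signals that the authors had already processed. The sources used here do not state the background correction, normalization or summarization, and a normalization between arrays hides a shift shared by most genes. The values were used without a further normalization.

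The 64 control probe sets were left out. Names came from the platform annotation, updated through the TAIR10.1 RefSeq gene table. Of 22746 probe sets, 13513 had 1 gene (13436 matched the table), 503 several and 8730 none. The names HHO and PGD and the list members came from gene lists keyed by locus. A gene with several probe sets (147 of 13355) was represented by the one with the highest mean.

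With limma 3.58.1 (R 4.3.3), the 12 arrays were fitted together by a model that gives each group its mean (8 residual and 3.20 prior degrees of freedom). Tests were two-sided, with Benjamini-Hochberg adjustment over 22746 probe sets and a threshold of 0.05. The procedure was tested on simulated data with noise drawn independently for each array. The deviations given below were correlated between arrays, so nothing is concluded from that run about these data. Rules named the 14 largest rises and falls with 1 gene, the 5 called genes with the highest mean, the 5 with the smallest p for the difference from Ws, and of each list or family up to 4 members past the threshold or else 2. The members and lists were chosen with earlier results of these data known. Deviations of same-numbered afb3-1 and Ws arrays correlated by 0.301 to 0.661 within a treatment (6 pairs). Numbers were therefore used to pair the genotypes in a fit added after the plan. Correlations between genotypes for arrays of other numbers were not computed, so the pairing is not established. This pairing comes from the data, not the labels. Promoter motifs were not analysed here. Array number limits the precision. Alternatives were other normalizations, filters and model settings, a replicate block and leaving out each array.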

Additional observations from a re-analysis of the deposited data

How the results depend on the processing

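No called gene named by rule changed direction under any alternative, and the difference from Ws was called for 0 probe sets under all of them (limma, with 664 at an unadjusted p under 0.05 in the fit as reported). Calls in afb3-1, as all, rises and falls, were 627, 412 and 215 after quantile normalization, 601, 417 and 184 after median centring, 631, 408 and 223 without the dimmest tertile, 548, 367 and 181 with only the afb3-1 arrays and 622, 413 and 209 with trend and robust moderation. Without moderation they were 416, 295 and 121, at an adjusted p of 0.01 343, 262 and 81, and with array weights 1612, 797 and 815, an even split. With the replicate number as a block they were 936, 546 and 390, and family members called numbered 14. Same-numbered KCl and KNO3 arrays had deviations correlated by −0.22, 0.53 and −0.01 in afb3-1 and by −0.28, 0.54 and 0.07 in Ws. Those of afb3-1 arrays with other numbers reached 0.47. Whether same-numbered KCl and KNO3 arrays share more than a number was not tested. Leaving out each array gave 380 to 571 calls, 278 to 384 rises, 100 to 187 falls and 3 to 6 family members, against 6 as reported. Family members numbered 23 with array weights, 3 without moderation and 3 at an adjusted p of 0.01, and list members 7 to 9 throughout. The cause of these shifts was not tested, beyond fewer samples or a stricter threshold. Of 46 called genes named by rule, 36 to 41 kept the call without a single afb3-1 array, 35 without moderation and 34 at 0.01. Folds of dim probe sets are understated. Promoter motifs could not be run, as no sequence table was at hand.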
